A study of Mus musculus with 15 samples.

Results

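The genes Klf2, Foxo1, Lef1, Bach2, Satb1, Il7r, Ccr7 and S1pr1, which T cells are known to express at rest, are described here across 15 expression arrays of mouse T helper cell cultures. They are 8 of 9 symbols of a fixed list of naive and memory T cell quiescence genes, out of 18194 genes that the platform annotation names on the array. The ninth, Tcf7, had no probe set named in the annotation used here, so no value is given for it. Each gene was read through 1 probe set, the one with the highest mean over the 15 arrays, and its other probe sets served as a check. All values are log2 expression, so that a difference of 1 is a doubling.

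The cultures were started from naive CD4 T cells of 3A9 mice, whose transgenic T cell receptor recognises hen egg lysozyme (HEL), sorted with the antibody 1G12 against that receptor. They were driven toward Th1 with IL-12 (10 ng/ml) and anti-IL-4 (10 μg/ml), or toward Th9 with IL-4 (10 ng/ml) and TGF-b (1 ng/ml). The Th17 cultures received TGF-β (3 ng/ml), IL-6 (10 ng/ml) and IL-1α (5 ng/ml) with antibodies to IFN-γ (20 μg/ml) and to IL-4 and IL-12 (both 10 μg/ml). Activation was by HEL on irradiated (30 Gy) wild-type splenocytes, called HA, or by antibodies to CD28 (10 μg/ml) and CD3 (1 μg/ml) bound to the plate, called PBAB. The HEL dose was 1 μg/ml in Th9 cultures and 2 μg/ml in Th1 and Th17 cultures. RNA was taken on day 4. Each lineage had 2 arrays of HA, 2 of PBAB and 1 of a sample named APC alone. What those samples contain is not defined in the labels. Replicates are called biological, but the animals and cultures behind them are not named, so the spread behind the p-values is that between these samples and may be technical.

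A resting T cell keeps its state through a small group of transcription factors and displays receptors that keep it alive and recirculating. FOXO1 and KLF2 drive genes for homing and survival, TCF1 (the product of Tcf7) and LEF1 keep the naive and memory programme, BACH2 restrains effector genes, and SATB1 organises chromatin. IL7R takes up a survival signal, CCR7 guides cells into lymph nodes, and S1PR1 lets them leave again. Receptor engagement is known to lower several of these transcripts through PI3K and AKT signalling.

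The labels were checked against markers before the results. The mean of 12 T cell identity genes per array lay between 6.83 and 7.89 in APC alone, below the 10.5 to 11.2 of HA arrays and the 10.8 to 11.2 of PBAB arrays. The mean of 12 macrophage and monocyte markers ran from 9.47 to 9.89 in APC alone, against 4.99 to 6.79 in HA and 4.91 to 5.40 in PBAB. Over all tested genes, arrays of APC alone correlated with the activated arrays at 0.375 to 0.572, and activated arrays correlated among themselves at 0.924 to 0.987. APC alone is labelled as CD4 T cells, and these values go against that label. The difference between the 3′ and 5′ actin control probe sets, which grows as RNA degrades, ranged over 0.0453 to 0.109 in HA arrays, 0.124 to 0.277 in PBAB arrays and 0.736 to 0.994 in APC alone. Its part in the differences between HA and PBAB was not tested. The number of arrays limits the precision throughout.

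Klf2, S1pr1, Il7r and Lef1 were lower after plate-bound antibody than after presented antigen, and Ccr7 was higher. Averaged over the 3 lineages, Klf2 fell by 2.73 ± 0.16 (SE) on the log2 scale, S1pr1 fell by 1.35 ± 0.17, Il7r fell by 1.19 ± 0.17 and Lef1 fell by 0.72 ± 0.16. Ccr7 rose by 1.05 ± 0.17. Bach2, Foxo1 and Satb1 did not pass the test. That is 4 lower, 1 higher and 3 not called of 8, in limma's moderated test at a Benjamini-Hochberg adjusted p under 0.05 over 15498 genes. Of all tested genes, 17.3% were called lower and 13.2% higher in this averaged comparison, and the median difference was -0.44 over the 8 genes and 0.02 over all. In bulk RNA, fewer cells that express a gene and less of its RNA per cell cannot be told apart.

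**Figure D1:**
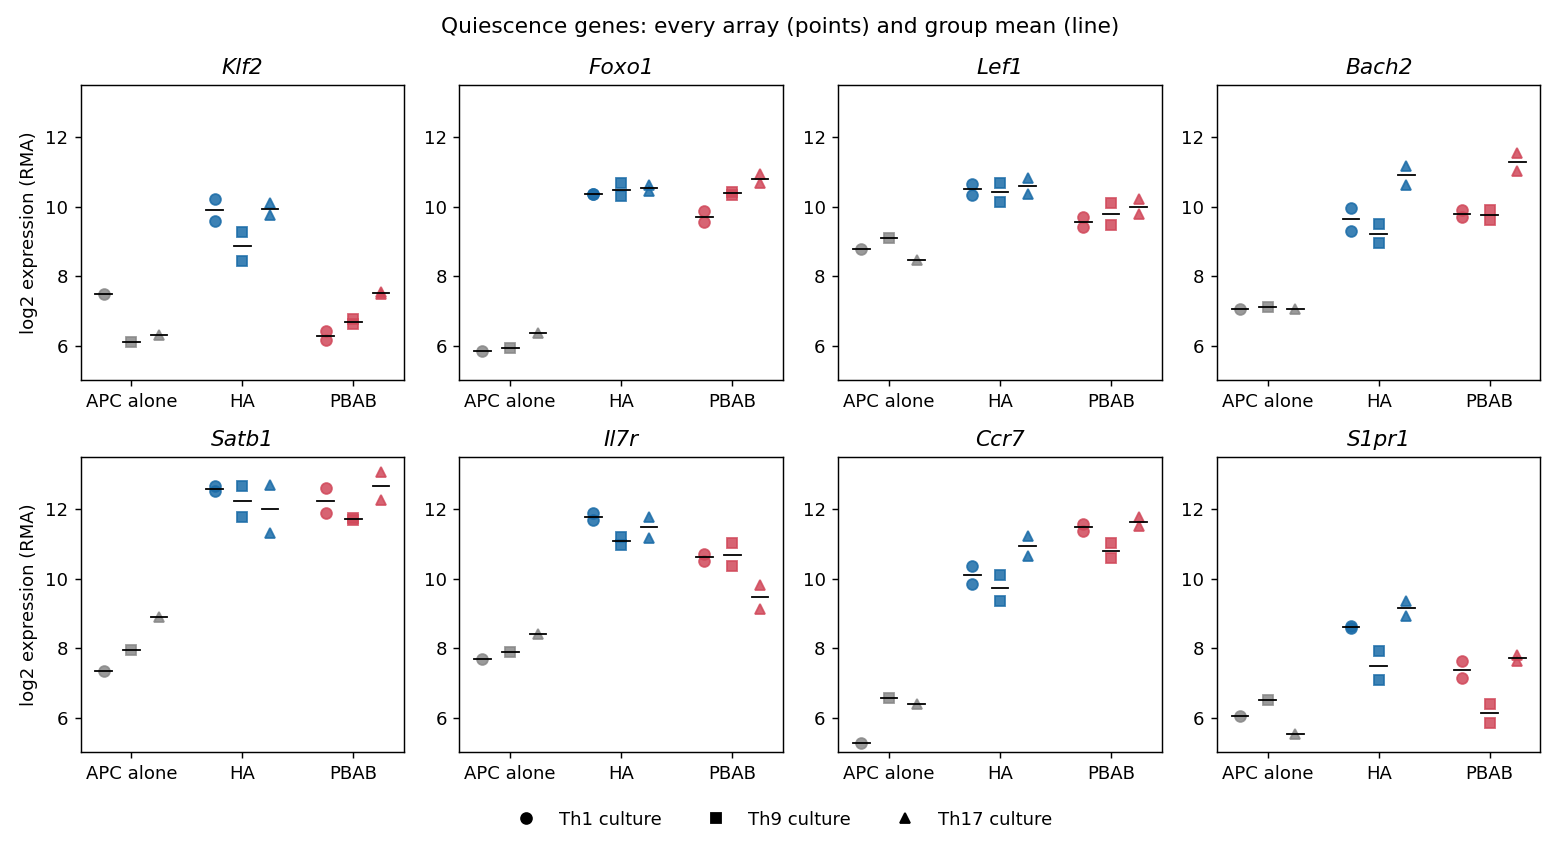
Log2 expression (y axis) of the 8 quiescence genes in each array (points, shaped by lineage) under APC alone, HA and PBAB (x axis), with the mean of each group as a line. The Klf2 points of HA lie between 8.43 and 10.23 and those of PBAB between 6.15 and 7.55, while Ccr7 runs from 9.36 to 11.23 in HA and from 10.59 to 11.77 in PBAB.

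Counts were also taken within each lineage, where the HA cultures of Th9 had the lower HEL dose. In Th1 cultures 5 of the 8 genes were called lower and 1 higher, where 9.4% of all genes were called lower and 5.22% higher. In Th9 cultures 2 were called lower and 1 higher, beside 6.32% and 7.39% of all genes. In Th17 cultures 3 were called lower and none of the 8 higher, beside 10.4% and 6.66%. The median difference of the 8 genes was -0.79 in Th1, -0.45 in Th9 and -0.17 in Th17, against 0.03, 0.01 and -0.00 over all genes. With the replicate number as a block, the Th17 count came to 5, the added genes being Lef1 and Ccr7, where 30.4% of all genes were called in either direction. The Th1 count of 6 came to 2 without Th1 HA replicate 1, 1 without Th1 HA replicate 2, and 2 without either Th1 PBAB array. The Th9 count of 3 came to 1 without Th9 PBAB replicate 2, and the Th17 count of 3 was 2 without Th17 HA replicate 1 or without Th17 PBAB replicate 2.

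Klf2, a zinc finger factor that drives S1pr1 and other trafficking genes in resting T cells, had the widest gap of the 8 genes between the activations. In HA cultures it read 9.59 and 10.23 in Th1, 9.27 and 8.43 in Th9, and 10.09 and 9.77 in Th17. In PBAB cultures it read 6.15 and 6.43 in Th1, 6.63 and 6.76 in Th9, and 7.55 and 7.49 in Th17. Every HA array was therefore above every PBAB array, across lineages as well as within them. The difference in Th1 was -3.62 ± 0.29 (12.3-fold lower, adjusted p = 5.0e-05 by limma). In Th9 it was -2.16 ± 0.29 (4.47-fold, adjusted p = 0.000971), and in Th17 -2.41 ± 0.29 (5.32-fold, adjusted p = 0.000597). These 3 calls and the averaged one held without any single array and under every alternative filter, scaling and fit that was run.

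Foxo1, the forkhead factor upstream of Klf2, Il7r and Ccr7 in resting T cells, was near one level in most cultures. It read 10.35 and 10.36 in Th1 HA against 9.86 and 9.57 in Th1 PBAB. Both PBAB arrays were lower, and the difference was -0.64 ± 0.18 (adjusted p = 0.0404 by limma). That call was lost without any one of the 4 Th1 arrays (adjusted p from 0.0598 to 0.256), without either Th9 PBAB array (0.0564) and without either Th17 HA array (0.0519). Th9 arrays overlapped, with 10.67 and 10.30 in HA and 10.34 and 10.43 in PBAB. In Th17 the values were 10.61 and 10.45 in HA and 10.93 and 10.66 in PBAB, and the difference of 0.26 ± 0.18 was not called (adjusted p = 0.418).

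Lef1, a partner of TCF1 in naive and memory cells, was lower in PBAB in all 6 same-numbered pairs of arrays within a lineage, with differences from -1.23 to -0.586. In HA it read 10.35 and 10.64 in Th1, 10.69 and 10.13 in Th9, and 10.82 and 10.37 in Th17. In PBAB it read 9.70 and 9.41 in Th1, 10.10 and 9.46 in Th9, and 10.21 and 9.77 in Th17. The HA and PBAB arrays did not overlap within a lineage, but they did across lineages. The averaged difference had an adjusted p of 0.00637 by limma and held without any single array. By lineage, Th1 was at the threshold (-0.94 ± 0.28, adjusted p = 0.0498), while Th9 (-0.63 ± 0.28, 0.196) and Th17 (-0.60 ± 0.28, 0.193) did not pass it. The Th1 call was lost without any one of the 4 Th1 arrays (0.0872 to 0.251) and without any one of the 4 Th17 arrays of HA and PBAB (0.0531 to 0.0576). With the replicate block, Lef1 was called in Th9 (0.0391), where the block called 26.2% of all genes, and in Th17 (0.0405).

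Bach2, a repressor of effector genes, was highest in Th17 cultures. It read 9.30 and 9.97 in Th1 HA and 9.89 and 9.70 in Th1 PBAB, which overlap. It read 9.51 and 8.94 in Th9 HA and 9.90 and 9.61 in Th9 PBAB, which do not overlap. In Th17 it read 11.16 and 10.63 under HA and 11.53 and 11.02 under PBAB, above all Th1 and Th9 arrays. In 5 of 6 same-numbered pairs it was higher in PBAB, and the averaged activation difference was 0.36 ± 0.17 (adjusted p = 0.149 by limma).

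Satb1, a chromatin organiser, ranged from 11.32 to 12.70 under HA and from 11.69 to 13.06 under PBAB. These ranges overlapped, and replicates of 1 group lay as far apart as 12.70 and 11.32, in Th17 HA. With the probe set used, no activation contrast was called, the average being -0.07 ± 0.26 (adjusted p = 0.889 by limma). Its sign changed without any one of 4 arrays, Th1 PBAB replicate 2, Th9 HA replicate 1, Th17 HA replicate 1 or Th17 PBAB replicate 2, where it ran from 0.05 to 0.16.

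Il7r, the receptor chain for interleukin 7, fell in Th1 and Th17 cultures. It read 11.88 and 11.70 in Th1 HA against 10.51 and 10.72 in Th1 PBAB (-1.18 ± 0.29, adjusted p = 0.0227 by limma). It read 11.78 and 11.16 in Th17 HA against 9.13 and 9.82 in Th17 PBAB (-2.0 ± 0.29, 4.00-fold lower, adjusted p = 0.00146). The groups were apart in both lineages. Th9 arrays overlapped, with 11.21 and 10.97 in HA and 10.37 and 11.02 in PBAB, and the difference was -0.40 ± 0.29 (adjusted p = 0.481). The Th1 call was lost without any one of the 4 Th1 arrays (0.0751 to 0.115).

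Ccr7, the chemokine receptor for entry into lymph nodes, went the other way. It read 10.37 and 9.86 in Th1 HA against 11.59 and 11.36 in Th1 PBAB (1.36 ± 0.30, 2.56-fold higher, adjusted p = 0.0120 by limma). It read 10.11 and 9.36 in Th9 HA against 11.02 and 10.59 in Th9 PBAB (1.08 ± 0.30, adjusted p = 0.0363). In Th17 the values were 11.23 and 10.65 in HA and 11.77 and 11.52 in PBAB, and the difference of 0.70 ± 0.30 was not called (0.144) without the replicate block and was called with it (0.00443). All 6 same-numbered pairs were higher in PBAB, with differences from 0.541 to 1.5. The Th1 call was lost without Th1 HA replicate 2 (0.0998) or Th1 PBAB replicate 1 (0.0761). The Th9 call was lost without Th9 HA replicate 2 (0.246), Th9 PBAB replicate 1 (0.206), Th9 PBAB replicate 2 (0.0620) or either Th17 PBAB array (0.0511).

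S1pr1, the sphingosine 1-phosphate receptor for exit from lymph nodes and a known target of KLF2, fell in all 3 lineages. In HA it read 8.64 and 8.58 in Th1, 7.93 and 7.07 in Th9, and 9.36 and 8.93 in Th17. In PBAB it read 7.63 and 7.14 in Th1, 6.40 and 5.85 in Th9, and 7.80 and 7.63 in Th17. The activations were apart within each lineage, whereas Th9 HA overlapped Th1 and Th17 PBAB. Differences were -1.23 ± 0.30 in Th1 (adjusted p = 0.0202 by limma), -1.37 ± 0.30 in Th9 (0.0128) and -1.43 ± 0.30 in Th17 (0.00855). The Th1 call was lost without Th1 HA replicate 1 (0.0811), Th1 HA replicate 2 (0.0851) or Th1 PBAB replicate 2 (0.149). The Th9 call was lost without Th9 HA replicate 1 (0.0823) or Th9 PBAB replicate 2 (0.0984), and the Th17 call without Th17 HA replicate 1 (0.0578) or Th17 PBAB replicate 2 (0.0626).

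**Figure D2:**
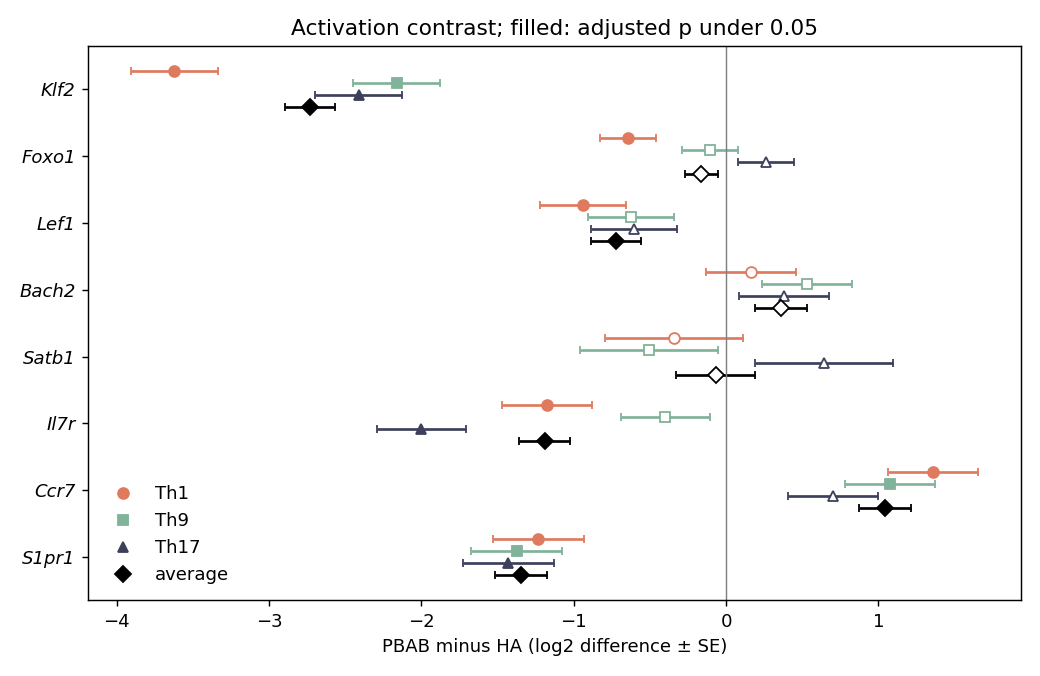
Difference PBAB minus HA in log2 expression (x axis, bars show the SE) for each quiescence gene (y axis) in Th1, Th9 and Th17 cultures and averaged, with filled symbols at an adjusted p under 0.05. Klf2 and S1pr1 are filled in all 3 lineages, and the averages run from -2.73 for Klf2 to 1.05 for Ccr7.

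Markers of other cells also moved in the averaged comparison of PBAB with HA, where 17.3% of all genes were called lower and 13.2% higher. Of 12 macrophage and monocyte markers, 7 were called lower and 1 higher in PBAB on average, with Lyz2 at -3.35 ± 0.23, Cd14 at -1.27 ± 0.19 and Marco at -1.16 ± 0.10. In Th1, 0 were called lower and 1 higher, beside 9.4% and 5.22% of all genes. In Th9 the counts were 3 and 1, beside 6.32% and 7.39%. In Th17 they were 7 and 0, beside 10.4% and 6.66%. The list median was 0.13 in Th1, -0.70 in Th9 and -1.41 in Th17. Of 5 NK and CD8 T cell markers, 3 were called lower and none higher, with Klrd1 at -2.11 ± 0.35, Cd8a at -1.68 ± 0.53 and Cd8b1 at -1.35 ± 0.28. The Cd8a call was lost without any one of 6 arrays, at adjusted p from 0.0897 to 0.101 by limma: Th1 HA replicate 2, Th1 PBAB replicate 1, Th9 HA replicate 2, Th9 PBAB replicate 1, Th17 HA replicate 2 and Th17 PBAB replicate 1. It was also lost with the mean of all its probe sets (-0.88, 0.0725). The mean of the 5 markers ran from 6.96 to 8.97 in HA, from 6.08 to 7.86 in PBAB and from 5.21 to 5.49 in APC alone. In HA minus APC alone, 4 of these 5 were called higher and 1 lower, so most were lowest in APC alone, unlike the macrophage markers. Of 10 B cell markers 1 was called higher (Ebf1, with means of 4.11 in HA and 4.84 in PBAB, both below the 5.07 used as the threshold for low values, so that the size of its difference is uncertain), of 5 dendritic markers 1 lower (Itgax, -0.54 ± 0.12) and of 4 endothelial markers 1 lower (Pecam1, -2.31 ± 0.19, a gene that T cells and myeloid cells also express). The T cell identity list had 3 higher, 3 lower and 6 not called of 12, among them Cd5 at 2.48 ± 0.20, Cd6 at 1.59 ± 0.13 and Skap1 at -0.80 ± 0.09. The part of the macrophage, NK and CD8 markers in the results was not tested.

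Whether the effect of the activation differed between lineages was asked with an F test of the interaction. Under HA the Th9 cultures had the lower HEL dose, so dose and lineage cannot be told apart where Th9 is compared. None of the 8 genes was called by limma, where 4.19% of all genes were, and the lowest adjusted p-values were 0.118 for Klf2, 0.119 for Il7r and 0.162 for Foxo1. At an unadjusted p under 0.05 the count was 3 of 8. With the replicate block, 3 were called, at 0.0304 for Foxo1, 0.0462 for Il7r and 0.0479 for Klf2, where 14.9% of all genes were. The Foxo1 effect was then higher in Th17 than in Th1 by 0.91 (adjusted p = 0.0164, beside 11.8% of all genes called, and 0.0964 without the block). The Il7r effect was lower in Th17 than in Th9 (difference -1.60, adjusted p = 0.0288, beside 9.52%, and 0.0834 without the block). Without Th9 HA replicate 1 the count was 1, Klf2 (0.0422).

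Lineages were then compared within each activation. Under HA the F test called Bach2 (adjusted p = 0.00999 by limma) and S1pr1 (0.0132), 2 of 8, beside 9.66% of all genes, and with the replicate block also Ccr7 (0.000555) and Klf2 (0.0221), 4 of 8 beside 21%. Under PBAB it called Bach2 (0.0123), Foxo1 (0.0114), Il7r (0.0391) and S1pr1 (0.0155), 4 of 8, beside 8.43%, and with the block also Ccr7 (0.00519) and Klf2 (0.0207), 6 of 8 beside 20.7%. Without the block Klf2 was near the threshold, at 0.0501 under HA and 0.0508 under PBAB. A further quantile normalization called it under both (0.0446 and 0.0419), as did averaging the probe sets of every gene (0.0486 and 0.0478). The stricter filter called Klf2 under PBAB (0.0496), and the further normalization called Ccr7 under HA (0.0393). With the mean of all its probe sets Bach2 was called under neither (0.10 and 0.0945). The HA count was 4 without Th9 HA replicate 1, 1 without Th9 HA replicate 2 and 0 without Th17 HA replicate 1. The PBAB count was 2 without Th1 PBAB replicate 2 or Th9 PBAB replicate 2, and 0 without Th17 PBAB replicate 1. Under HA the Th9 cultures also differed from the others in the HEL dose, and dose and lineage cannot be told apart there.

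Between Th17 and Th9 the quiescence genes were higher in Th17 for Bach2 and S1pr1 under both activations. Under HA, Bach2 was 1.67 ± 0.29 higher (adjusted p = 0.00949 by limma), S1pr1 1.65 ± 0.30 (0.0113) and Ccr7 1.21 ± 0.30 (0.0453), 3 of 8 beside 4.77% of all genes. Under PBAB, Bach2 was 1.52 ± 0.29 higher (0.0123) and S1pr1 1.59 ± 0.30 higher (0.0105), while Il7r was lower (-1.22 ± 0.29, 0.0351), 3 of 8 beside 6.37%. Each of these calls was lost without some single array. The Bach2 and S1pr1 calls under HA were lost without Th9 HA replicate 2 or Th17 HA replicate 1 (0.0769 to 0.0877), and under PBAB without Th9 PBAB replicate 2 or Th17 PBAB replicate 1 (0.0787 to 0.106), S1pr1 also without Th17 PBAB replicate 2 (0.0565). The Il7r call was lost without Th9 PBAB replicate 2 (0.224), Th17 PBAB replicate 1 (0.247) or either Th1 PBAB array (0.0510). The Ccr7 call was lost without Th9 HA replicate 2 (0.298), Th17 HA replicate 1 (0.262), Th17 HA replicate 2 (0.0627) or any PBAB array (0.0538 to 0.0679).

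Between Th17 and Th1, Bach2 was again higher in Th17. Under HA it was the one gene of 8 called, at 1.26 ± 0.29 (adjusted p = 0.0277 by limma), beside 6.9% of all genes, and the call was lost without Th1 HA replicate 1 (0.203) or Th17 HA replicate 1 (0.171). Under PBAB 4 of 8 were called beside 6.99%. They were Bach2 at 1.48 ± 0.29 (0.0130), Klf2 at 1.23 ± 0.29 (0.0284), Foxo1 at 1.08 ± 0.18 (0.00548) and Il7r at -1.14 ± 0.29 (0.0435). Neither other Bach2 probe set gave any of the 4 Bach2 calls of Th17 against Th1 or Th9 (adjusted p from 0.499 to 0.652 for 1437667_a_at and from 0.0763 to 0.373 for 1445460_at). Both were higher in Th17 in all 4, by 1.25 to 1.70 with an SE of 0.995 for 1437667_a_at and by 0.43 to 0.71 for 1445460_at. The Klf2 call was lost without any one of the 4 arrays compared (0.0831 to 0.165). The Bach2 call was lost without either Th1 array (0.0602 and 0.0935) or Th17 PBAB replicate 1 (0.105), and the Foxo1 call without Th1 PBAB replicate 2 (0.0563) or Th17 PBAB replicate 1 (0.0520). The Il7r call was lost without either Th1 PBAB array (0.124 and 0.229), Th17 PBAB replicate 1 (0.265), either Th1 HA array (0.0572) or either Th9 HA array (0.0565).

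Between Th9 and Th1 none of the 8 was called, under HA beside 5.34% of all genes or under PBAB beside 2.16%. At an unadjusted p under 0.05 the counts were 3 and 3 of 8. The widest differences were those of S1pr1, -1.12 ± 0.30 under HA (adjusted p = 0.0623 by limma) and -1.26 ± 0.30 under PBAB (0.0706), and of Klf2, -1.06 ± 0.29 under HA (0.0649). After a further quantile normalization S1pr1 was called lower in Th9, under HA (-0.94, 0.0412) and under PBAB (-1.22, 0.0223). Probe set 1416982_at of Foxo1 was called higher in Th9 under PBAB (0.90, 0.0295), unlike the one used. With the replicate block S1pr1 was called lower in Th9 under HA (0.00202) and under PBAB (0.00199), and so was Klf2 under HA (0.0291). The block called 12% of all genes under HA and 5.56% under PBAB. The block also added calls for Foxo1 (0.67, 0.0201) and Ccr7 (-0.67, 0.0255) in Th9 against Th1 under PBAB. Against Th9, it added Klf2 under HA (1.08, 0.0278) and Ccr7 (0.83, 0.00366) and Satb1 (0.94, 0.0445) under PBAB in Th17, and against Th1 it added Ccr7 in Th17 under HA (0.82, 0.00362). The block called 11.8% and 15.2% of all genes in Th17 against Th9, under HA and PBAB, and 15.3% in Th17 against Th1 under HA. Without Th9 HA replicate 1, S1pr1 was called under HA (0.0239) and Klf2 under HA (0.0215), and without Th1 HA replicate 1 Klf2 was called (0.0470). S1pr1 under PBAB was called without either Th9 HA array (0.0326). Klf2 in Th17 against Th9 under HA was called without Th9 HA replicate 1 (0.0267) or either Th1 HA array (0.0495).

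The order of the 6 activated groups differed between genes. Klf2 ran from Th17 HA (9.93) and Th1 HA (9.91), whose arrays overlapped, through Th9 HA (8.85), Th17 PBAB (7.52) and Th9 PBAB (6.69) to Th1 PBAB (6.29), each apart from the next. S1pr1 ran from Th17 HA (9.14) and Th1 HA (8.61), which were apart, to Th17 PBAB (7.71), Th9 HA (7.50) and Th1 PBAB (7.38), which overlapped, and then to Th9 PBAB (6.13), apart from them. Bach2 had Th17 PBAB (11.28) and Th17 HA (10.89) overlapping at the top and the other 4 groups overlapping from 9.80 to 9.22. For Il7r only Th17 PBAB, the lowest at 9.47, was apart from its neighbour, and for Ccr7 the top pair was Th17 PBAB (11.64) and Th1 PBAB (11.47). Foxo1 had Th17 PBAB (10.80) apart at the top and Th1 PBAB (9.71) apart at the bottom. For Lef1 and Satb1 every neighbouring pair of groups overlapped.

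Against APC alone, the 8 genes were higher in the activated cultures with 1 exception. HA minus APC alone, averaged over lineages, was called higher for 8 of 8 genes, from 1.71 ± 0.20 for Lef1 through 2.93 ± 0.20 for Klf2 to 4.42 ± 0.13 for Foxo1. PBAB minus APC alone was called higher for 7 of 8, from 0.99 ± 0.20 for Lef1 to 5.24 ± 0.21 for Ccr7, and Klf2 was not called (0.20 ± 0.20, adjusted p = 0.364 by limma). Of all genes, 49.5% and 48.7% were called higher, so that the counts sit on a wide background. Both comparisons use the same 3 arrays of APC alone, 1 per lineage, whose spread was taken to be that of the other groups. Given the markers above, they set cultures of T cells against samples rich in macrophage transcripts. The Klf2 value was 0.90 and called (adjusted p = 0.00552) without Th1 APC replicate 1, and -0.30 (0.264) without Th17 APC replicate 1. S1pr1 was not called (0.47, 0.110) without Th17 APC replicate 1. The median over all genes in HA minus APC alone was 0.36 as deposited, 0.08 after a further quantile normalization and 0.93 with each array centred on its median. After the further quantile normalization, the Lef1 differences turned to -0.22 (HA, 0.245) and -0.84 (PBAB, 0.000755). With arrays centred, Klf2 in PBAB was called higher (0.62, 0.0176).

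Other probe sets of the same genes gave a mixed check. Klf2, Ccr7 and S1pr1 have 1 probe set each, so no check was possible for them. The second Il7r probe set gave -1.13 in the averaged activation contrast (adjusted p = 0.00111 by limma), close to the -1.19 of the one used. Under PBAB it was not called in Th17 minus Th1 (-1.22, 0.0520) and was called in Th17 minus Th9 (-1.42, 0.0291). In the averaged activation contrast the second Lef1 probe set gave -0.77 (0.00227) against -0.72. In APC alone the second Lef1 probe set read 4.93 in Th1, 4.77 in Th9 and 4.21 in Th17, all below the threshold for low values, so that the size of its difference from APC alone is uncertain. For Foxo1, 1 of the 3 other probe sets was called in the averaged contrast (1416982_at, -0.42, 0.00915). In Th1, PBAB minus HA was -0.95 for 1416982_at (0.00553) and -1.04 for 1416981_at, which was not called (0.0918). In Th17 minus Th1 under PBAB both were called, at 1.33 (0.00137) and 1.46 (0.0398). The remaining one, 1456529_at, had means below the threshold for low values and was called in neither (-0.00012 and 0.06).

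Satb1 showed the widest disagreement between probe sets. Probe set 1436182_at read 10.41 and 11.00 in Th1 HA against 8.45 and 8.54 in Th1 PBAB, and 10.90 and 10.76 in Th9 HA against 8.77 and 8.87 in Th9 PBAB. Those groups were apart by more than their spread. In Th17 it read 11.11 and 10.35 in HA and 10.22 and 9.64 in PBAB. Under PBAB it was called higher in Th17 than in Th1 (1.43, adjusted p = 0.0127 by limma) and than in Th9 (1.11, 0.0459). The F test of lineages under PBAB also called it (0.0208). Its averaged activation difference was -1.67 (adjusted p = 4.14e-05 by limma), against -0.07 for the brighter probe set 1416007_at that represents the gene. Probe sets 1416008_at (-0.08, 0.824) and 1439449_at (0.02, 0.977) were not called in that contrast either. Another, 1439315_at, lay between 3.21 and 4.04 in all activated arrays, below the threshold for low values. It was called higher in PBAB in Th17 (0.62, 0.0213), a size that is uncertain at that level. Bach2 had a probe set, 1445460_at, that turned the sign against APC alone (-1.02 for HA and -0.55 for PBAB). In the averaged activation contrast that probe set was called higher in PBAB (0.47, adjusted p = 0.0132 by limma). The third Bach2 probe set, 1437667_a_at, was not called against APC alone (1.05 for HA, 0.177, and 1.52 for PBAB, 0.0609). The levels of Satb1 and Bach2 as single values per gene are therefore uncertain.

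**Figure D3:**
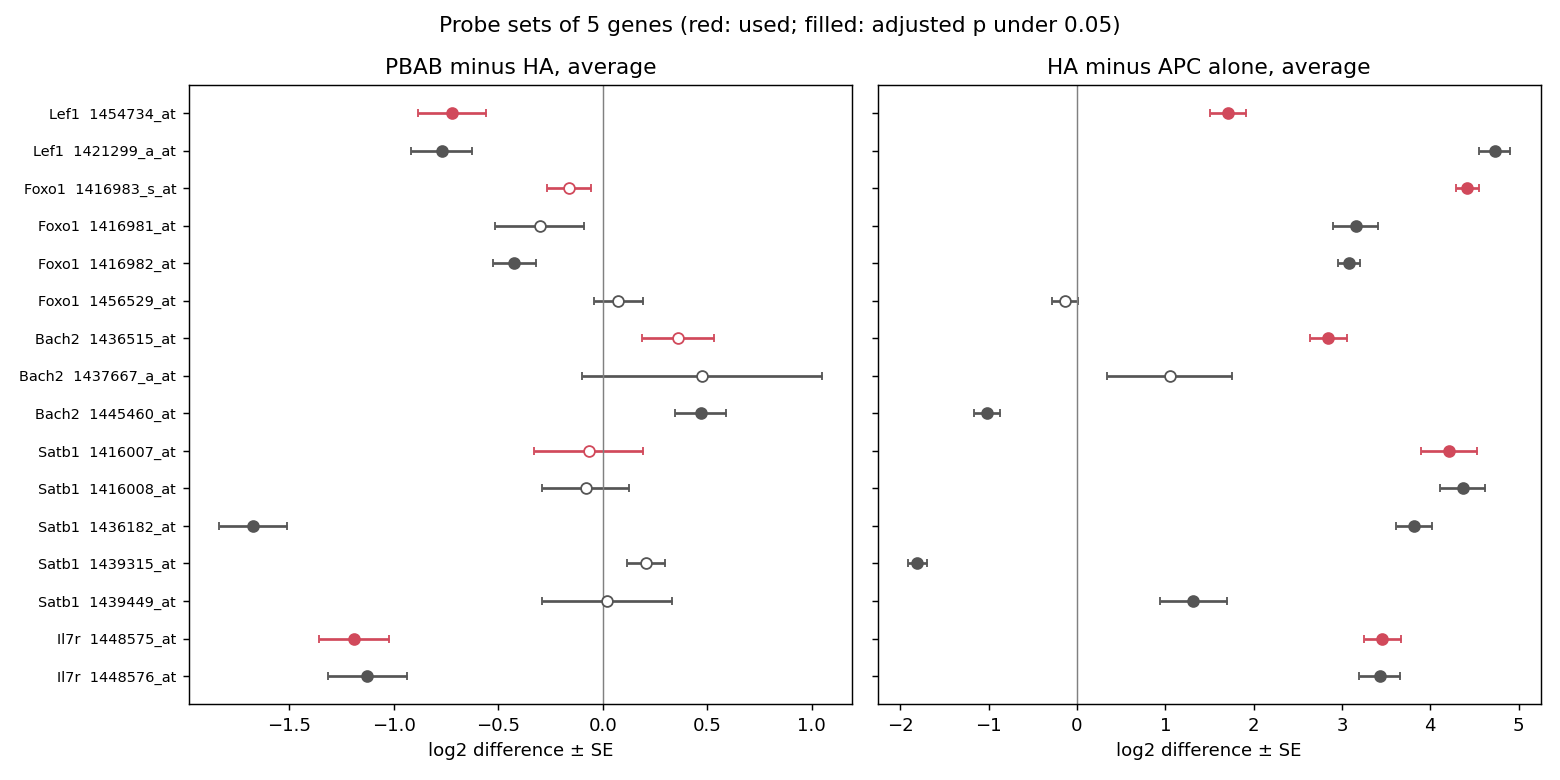
Log2 difference (x axis, bars show the SE) for every probe set (y axis) of the 5 quiescence genes that have several, PBAB minus HA on the left and HA minus APC alone on the right, with the probe set used in red and filled symbols at an adjusted p under 0.05. Satb1 1436182_at lies at -1.67 on the left while the Satb1 probe set used lies at -0.07.

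The start-site windows of Klf2, Lef1 and Il7r are shown because these 3 transcripts were lower in PBAB in the averaged contrast. The mouse RefSeq promoter table (GRCm38.p6, 250 bases before to 50 after the start) held 7 of the 9 symbols, in 15 windows, and Ccr7 and S1pr1 were not among them. Capitals mark CACCC or GGGTG, the letters of a KLF motif on either strand. The windows are chr8:72318812-72319111 (plus strand) for Klf2, chr3:131110047-131110346 (plus strand) for Lef1 and chr15:9529827-9530126 (minus strand) for Il7r, each read 5′ to 3′ on its own strand.
Klf2: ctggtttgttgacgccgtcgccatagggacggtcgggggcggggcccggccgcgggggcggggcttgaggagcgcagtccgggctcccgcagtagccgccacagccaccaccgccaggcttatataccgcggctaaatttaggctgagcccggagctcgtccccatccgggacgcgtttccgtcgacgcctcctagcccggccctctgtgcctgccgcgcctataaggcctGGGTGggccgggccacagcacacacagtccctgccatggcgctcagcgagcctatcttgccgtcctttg
Lef1: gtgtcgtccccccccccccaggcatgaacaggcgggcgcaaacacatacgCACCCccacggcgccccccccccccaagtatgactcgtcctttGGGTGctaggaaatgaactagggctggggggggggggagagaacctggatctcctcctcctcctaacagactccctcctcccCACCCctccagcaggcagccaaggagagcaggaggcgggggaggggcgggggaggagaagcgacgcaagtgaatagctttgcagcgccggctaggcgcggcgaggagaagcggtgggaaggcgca
Il7r: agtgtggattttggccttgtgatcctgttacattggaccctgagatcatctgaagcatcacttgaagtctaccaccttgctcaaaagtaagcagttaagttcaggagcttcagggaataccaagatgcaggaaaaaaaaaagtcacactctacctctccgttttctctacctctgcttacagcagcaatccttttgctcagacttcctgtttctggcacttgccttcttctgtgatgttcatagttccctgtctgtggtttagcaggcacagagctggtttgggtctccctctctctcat
Klf2 had 1 match, Lef1 had 3 and Il7r had 0. This short motif occurred in 11 of the 15 windows and in 57.5% of all 32851 windows in the table. The 11 were windows of Klf2, Lef1, Satb1 and Tcf7. Lef1 and Satb1 have several windows each, some of which overlap, so the count is not set against that share. A forkhead motif, GTAAACA on either strand, was in 1 of the 15, a window of Tcf7, and in 3.65% of all. A TCF/LEF motif, CTTTGAT on either strand, was in 0 of the 15 and in 3.73% of all. These are matches of letters within the window, and no binding was measured.

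Other genes of the quiescence programme did not move as a block. Of 12 further transcription factors, 4 were called higher and 3 lower in PBAB on average, beside 13.2% and 17.3% of all genes. The list median was 0.10 against 0.02 over all genes. The same shares and median over all genes stand beside every list count that follows. RUNX1, a repressor and activator in T cell development, had its transcript fall by 1.21 ± 0.10. The Runx1 means were 9.92 in APC alone, 8.87 in HA and 7.66 in PBAB, highest in APC alone like the macrophage markers. The part of other cells in that fall was not tested. Klf7 rose by 0.59 ± 0.11 and Klf3, a repressor of the KLF family, by 0.54 ± 0.10. The Klf3 difference was -0.02 when all its probe sets were averaged. Of 10 antiproliferative genes, 2 were called higher and 2 lower (median 0.19). Slfn2, whose loss is known to break T cell quiescence, fell by 2.06 ± 0.14 and Vsir, a checkpoint receptor of resting T cells, fell by 0.70 ± 0.11. Tsc22d3, the glucocorticoid-induced leucine zipper and a FOXO target, rose by 1.49 ± 0.14.

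Naive and memory surface and survival genes were divided as well. Of 10 tested, 2 were higher and 3 lower (median -0.18), again beside 13.2% and 17.3% of all genes. Dapl1, a gene of naive and memory T cells, rose by 2.63 ± 0.12, Il6ra rose by 0.64 ± 0.15, and the kinase Txk fell by 1.23 ± 0.18. Of 12 genes of effector and cycling cells, 3 were higher and 4 lower (median -0.07). The effector factors Id2 and Prdm1 fell by 2.04 ± 0.17 and 2.05 ± 0.19, and Havcr2, the gene of TIM-3, fell by 1.28 ± 0.18 to a mean of 4.33, below the threshold for low values. Those called higher were Irf4, a factor induced by receptor signalling (1.35 ± 0.21), Il2ra, the alpha chain of the interleukin 2 receptor (0.97 ± 0.15), and Cd44, an adhesion receptor of activated and memory T cells (0.51 ± 0.13). Mki67, a marker of cycling cells, fell by 1.39 ± 0.25 (adjusted p = 0.00173 by limma). Cd69, whose protein removes S1PR1 from the cell surface, was 0.50 ± 0.27 higher and not called (0.210), and was called without Th9 HA replicate 1 (0.76, 0.0175). In the egress list of Klf2, S1pr1, S1pr4, Sphk1 and Cd69, 3 were lower and 1 higher of 5. Klf2 and S1pr1 in that lower count are described genes already counted above. S1pr4, a second sphingosine 1-phosphate receptor, was at -1.03 ± 0.14.

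**Figure D4:**
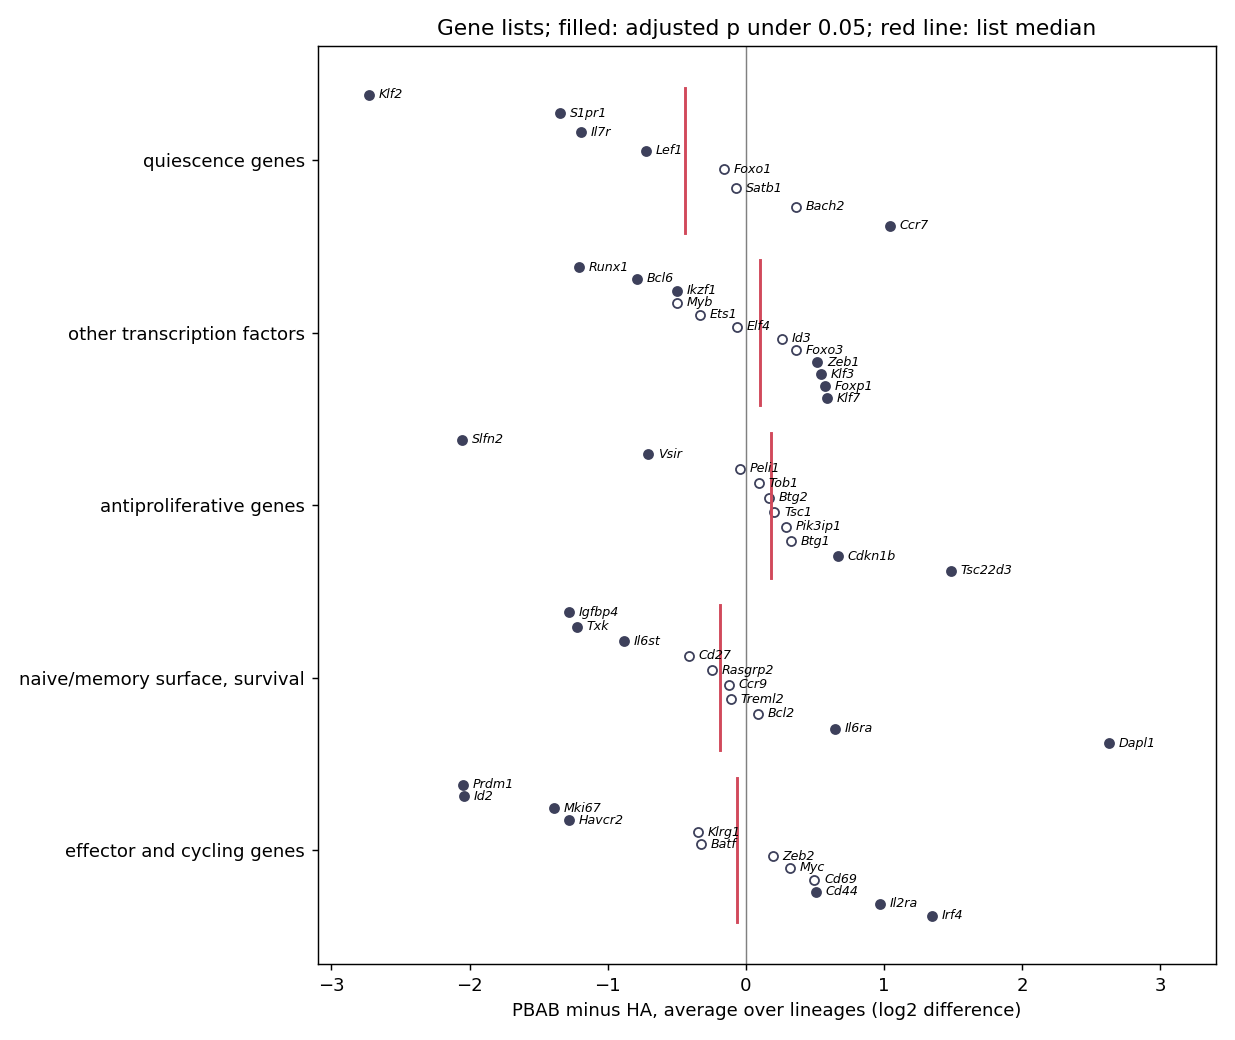
Difference PBAB minus HA in log2 expression averaged over lineages (x axis) for each gene of 5 lists (y axis), filled at an adjusted p under 0.05, with the list median as a red line. Medians run from -0.44 for the quiescence genes to 0.19 for the antiproliferative genes, and each list has called genes on both sides of 0.

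Patterns over the 12 activated arrays were compared by Pearson's r, as a description. The arrays share the activation and lineage contrasts, so genes that differ between the groups correlate. Klf2 was most like Pigbos1 (0.980) and A930005H10Rik (0.971), Lef1 like Add1 (0.957) and Ldah (0.956), and S1pr1 like Ttc8 (0.948) and Kiz (0.936). Bach2 was most like Il21 (0.957) and Ildr1 (0.953), Foxo1 like Maf (0.941) and Hdac4 (0.939), and Satb1 like Atp2b4 (0.859) and Syngr3 (0.855). Il7r was most like Cfap97 (0.929) and Atp5md (0.924), and Ccr7 like Aktip (0.959) and Mfhas1 (0.950). Among the quiescence genes, Klf2 had r = 0.875 with Lef1, 0.804 with S1pr1, 0.661 with Il7r and -0.531 with Ccr7.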

How the data were processed

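RNA from 15 cultures or samples was measured on Affymetrix mouse arrays. The deposited table held log2 values made by the authors with RMA, per the submitters' processing notes. Its version was not given in the sources used here. Base 2 was inferred from their range. Of 45101 probe sets, the platform annotation of 2016 gave 1 symbol to 34958, several to 932 and none to 9211, and only the first were used. Each gene took its probe set with the highest mean, and was tested if that exceeded the 40th percentile of the table (5.07) in at least 2 arrays, which left 15498 genes, all 8 described genes among them. No detection calls were used.

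Group means were fitted with limma 3.58.1 in R 4.3.3 over the 15 arrays together, with 6 residual and 4.38 prior degrees of freedom, Benjamini-Hochberg adjustment over all tested genes and a threshold of 0.05. The scripts were tested on simulated data. The alternatives were 2 other filters, 2 further normalizations, the mean of all probe sets, array weights, the activated arrays alone, the arrays of 1 lineage alone, each array left out and the replicate number as a block over the 12 activated arrays. Groups share replicate numbers in the labels, and deviations of same-numbered arrays correlated in all 15 pairs of groups (0.296 to 0.708, median 0.484). The numbers were taken to pair the samples only in the replicate block and in the differences of same-numbered arrays. The main fit did not use this pairing. Its p-values, and those of every alternative except the block, leave the shared part in the spread. The described genes, the gene lists, the rule for named genes (all 8, of every other list the 3 with the smallest averaged activation p, and Mki67 and Cd69) and the motifs were chosen with earlier results of these data known. Single genes named beyond that rule (Sphk1, Irf4, Il2ra and Cd44) were named to spell out a list.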

Additional observations from a re-analysis of the deposited data

Results flagged for a closer look

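None of the 8 quiescence genes showed an activation difference that varied with the lineage in the F test without the replicate block. Of the 33 genes named from the other lists, 10 did, by limma's F test with Benjamini-Hochberg adjustment, where 4.19% of all tested genes did. These 33 were named mostly for the smallest p in the averaged activation contrast, so the count is not set against that share. Values are PBAB minus HA on the log2 scale in Th1, Th9 and Th17, in that order. The HEL dose under HA was lower in Th9, and dose and lineage cannot be told apart there.

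Dapl1 was at 3.55, 4.39 and -0.06 (adjusted p = 0.000215). Txk was at -2.84, -0.85 and 0.02 (0.0126), Havcr2 at -3.16, -0.69 and 0.01 (0.00782), and S1pr4 at -2.01, -0.82 and -0.25 (0.0372). Vsir was at -1.29, -1.26 and 0.44 (0.00902). Klf7 was at -0.28, 1.25 and 0.80 (0.0211), and Slfn2 at -1.51, -1.60 and -3.07 (0.0405).

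The other 3 were macrophage and monocyte markers, all with the widest difference in Th17. Lyz2 was at -1.22, -3.63 and -5.21 (0.00925), Marco at -0.26, -0.64 and -2.59 (0.00210) and Cd14 at -0.25, -0.76 and -2.79 (0.0260). Groups of 1 or 2 arrays were too small to look for outlying arrays.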

How the results depend on the processing

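With 2 arrays per activated group, calls within a lineage rest on few values. Klf2 in each lineage and the 5 averaged activation calls (Klf2, S1pr1, Il7r, Lef1 and Ccr7) kept their side of the threshold in every alternative run. Leaving out each array in turn gave 1 to 6 of the 8 genes called in Th1 (6 with all arrays), 1 to 3 in Th9 (3), 2 to 3 in Th17 (3) and 5 to 5 on average. The ranges were 0 to 1 for the interaction (0), 0 to 4 for lineages under HA (2), 0 to 4 under PBAB (4), 8 to 8 for HA against APC alone (8) and 6 to 8 for PBAB against APC alone (7). The Th9 count was 1 with the 4 arrays of Th9 alone. With the replicate block the Th17 count was 5, the interaction count 3 and the count for lineages under HA 4, and quantile normalization again also gave 4. Besides the calls given above, the block changed no other call of the 8 genes.

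Lef1 in Th1 was also lost with no filter (adjusted p = 0.0529), quantile normalization again (0.0671) and centred arrays (0.0540), and Foxo1 in Th1 with quantile normalization (0.0613) and the Th1 arrays alone (0.0886). With the Th9 arrays alone Ccr7 (0.0795) and S1pr1 (0.0518) were lost there. With all probe sets averaged, the 4 Bach2 calls between lineages were lost (0.0809 to 0.130), as were its F tests under HA (0.10) and PBAB (0.0945). The Ccr7 call in Th17 against Th9 under HA was lost with centred arrays (0.0620) and array weights (0.0645), and that of Il7r in Th17 against Th1 under PBAB with centred arrays (0.0538). These are adjusted p-values from limma, and the causes were not tested.

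Signs turned as follows. Quantile normalization again gave -0.22 (HA) and -0.84 (PBAB) for Lef1 and -0.049 for Klf2 (PBAB) against APC alone. Probe set 1445460_at of Bach2 gave -1.02 and -0.55 against APC alone. Probe set 1456529_at of Foxo1 gave 0.075 for the averaged activation difference, -0.11 for Th9 minus Th1 under PBAB, and -0.13 and -0.060 against APC alone. Its means were 4.84 in APC alone, 4.70 in HA and 4.78 in PBAB, below the threshold for low values, so that these signs are uncertain. For Satb1, 1439315_at gave 0.029 in Th1, 0.21 on average, and -1.81 and -1.60 against APC alone, 1436182_at gave -0.80 in Th17, and 1439449_at gave 0.019 on average. Klf3 was -0.015 with all probe sets averaged. Leaving out single arrays gave ranges across 0 of -0.30 to 0.90 for Klf2 in PBAB against APC alone, -0.17 to 0.50 for Bach2 in Th1, -0.29 to 0.079 for Foxo1 in Th9, -0.70 to 0.019, -0.048 to 1.33 and -0.30 to 0.16 for Satb1 in Th1, in Th17 and on average, and -0.031 to 0.15 for Kdr on average.

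Of the values of called differences under an alternative, 1329 stayed called in the same direction, 110 were no longer called and 9 changed sign. Of those not called, 684 stayed so, 37 became called and 17 changed sign.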
